A study of Mus musculus with 5 samples.

Results

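The 35 genes described here carry out glycolysis, move glucose and lactate across the cell membrane, or belong to the transcriptional response to low oxygen. They were chosen by symbol, and all 35 were found among the 22815 gene symbols of the deposited table. Each of them reached 1 FPKM (fragments per kilobase of transcript, scaled to sequencing depth) in at least 1 library, as did 11117 genes of the table in all, so each was tested. RNA came from cells washed out of the peritoneal cavity of 8-week-old mice and was sequenced by Smart-seq2, a method for small amounts of polyadenylated RNA. The groups were Irf8-deficient mice given pristane (labelled Irf8KO, 2 libraries), wild-type (WT) C57BL/6 mice given pristane (2 libraries) and WT C57BL/6 mice given phosphate-buffered saline (PBS, 1 library). Pristane is a hydrocarbon oil that causes lasting sterile inflammation in the peritoneum, and Irf8 is a transcription factor of monocyte and dendritic cell development. The labels name no dose, time after injection or Irf8 allele, nor if each library is its own animal. The p-values therefore measure only the spread between these libraries.

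Glycolysis splits glucose into pyruvate in the cytosol and yields ATP without oxygen, and lactate dehydrogenase then turns pyruvate into lactate, which leaves the cell through monocarboxylate transporters. When oxygen is short, the prolyl hydroxylases that mark the factor Hif1a for breakdown lose activity, and the stabilised factor raises transcription of glucose transporters, glycolytic enzymes and genes that lower mitochondrial use of pyruvate. Stimulated macrophages and neutrophils are known to rely on the same programme, also where oxygen is ample.

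Irf8 stood at 120.5 and 59.4 FPKM in the Irf8KO-labelled libraries, 63.3 and 48.7 FPKM in WT pristane and 32.4 FPKM in WT PBS, so Irf8 RNA was not lower under the Irf8KO label. Gene-level values leave out which exons were covered, and the groups are named by their labels throughout. Sex-linked transcripts also divided the libraries. Xist, made from the inactive X chromosome, was at 0.0148 and 0.0145 FPKM in the Irf8KO-labelled libraries, 0 and 8.81 FPKM in WT pristane and 43.5 FPKM in WT PBS. Eif2s3y, on the Y chromosome, was at 23.2 and 25.6 FPKM in the Irf8KO-labelled libraries, 12.9 and 0 FPKM in WT pristane and 0 FPKM in WT PBS. The part of this split in the results was not tested. The smallest steps between listed values correspond to about 4900000 and 3390000 assigned fragments in the Irf8KO-labelled libraries, 4070000 and 2820000 in WT pristane and 2240000 in WT PBS. A single fragment on a 1-kb transcript then corresponds to 0.204 to 0.447 FPKM, so members listed below about 1 FPKM (Eno2, Vegfa and, in some libraries, Mxi1) rest on few fragments.

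The glycolytic programme stood far higher in both pristane groups than in the WT PBS library. No PBS library of Irf8-deficient mice was analysed here, so between the Irf8KO-labelled libraries and WT PBS genotype and treatment differ together and cannot be told apart. The 16 genes of the enzyme steps from hexokinase to lactate dehydrogenase added up to 5545 and 4995 FPKM in the Irf8KO-labelled libraries, 5831 and 5796 FPKM in WT pristane and 1019 FPKM in WT PBS. Those sums made up 0.952% and 0.964% of all FPKM in the Irf8KO-labelled libraries, 1.20% and 1.28% in WT pristane and 0.217% in WT PBS. The pristane libraries lay close together and well apart from the PBS library.

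Of the 35 genes, 19 rose in WT pristane against WT PBS and none fell (limma, adjusted p under 0.05), where 5.18% of all tested genes rose and 5.46% fell. In the Irf8KO-labelled libraries, 16 rose against the same PBS library and none fell, where 3.81% of all tested genes rose and 4.72% fell. The median log2 change was 1.97 over the 34 members not listed at 0 with PBS in WT pristane, beside -0.07 over all tested genes, and 1.88 in the Irf8KO-labelled libraries, beside -0.05. The 2 comparisons share the PBS library, so they are not independent: 15 members rose in both, Pfkp, Pfkfb4, Hif1a and Ndrg1 in WT pristane alone and Pfkl in the Irf8KO-labelled libraries alone. Both WT pristane libraries lay above PBS for 33 members and below it for none, where 37.3% and 44.5% of all tested genes did so. Both Irf8KO-labelled libraries lay above PBS for 32 members and below it for 2, where 40.7% and 46.0% did so. Calls in either direction made up 10.6% of all tested genes in WT pristane and 8.54% in the Irf8KO-labelled libraries. At an unadjusted p under 0.05, 26 members were higher and none lower in WT pristane, beside 15.9% and 17.8% of all tested genes (33.8% together), and 25 were higher and none lower in the Irf8KO-labelled libraries, beside 15.6% and 18.1% (33.7% together). All 4 pristane libraries lay above the PBS library for 31 of the 35 members, as they did for 28.9% of all tested genes. Vegfa, Mxi1 and Eno2 reached 1 FPKM in pristane libraries only, so the filter itself placed some pristane value of each above PBS. Vegfa and Mxi1 are counted in the 33, the 32, the 31 and the 26, and Eno2 in the 32. The shares of all tested genes rest on the same filter. The lone PBS library has no spread of its own and borrowed that of the pristane pairs. With any 1 pristane library left out no gene of the whole table passed the threshold. Scaling the libraries to their upper quartiles moved the median of all tested genes by -0.26 in WT pristane and -0.25 in the Irf8KO-labelled libraries and changed the balance of all calls in WT pristane to 449 higher and 1008 lower, against 576 higher and 607 lower as deposited, and in the Irf8KO-labelled libraries to 371 higher and 1004 lower, against 424 higher and 525 lower. With that scaling 15 members still rose in WT pristane and 16 in the Irf8KO-labelled libraries.

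**Figure D1:**
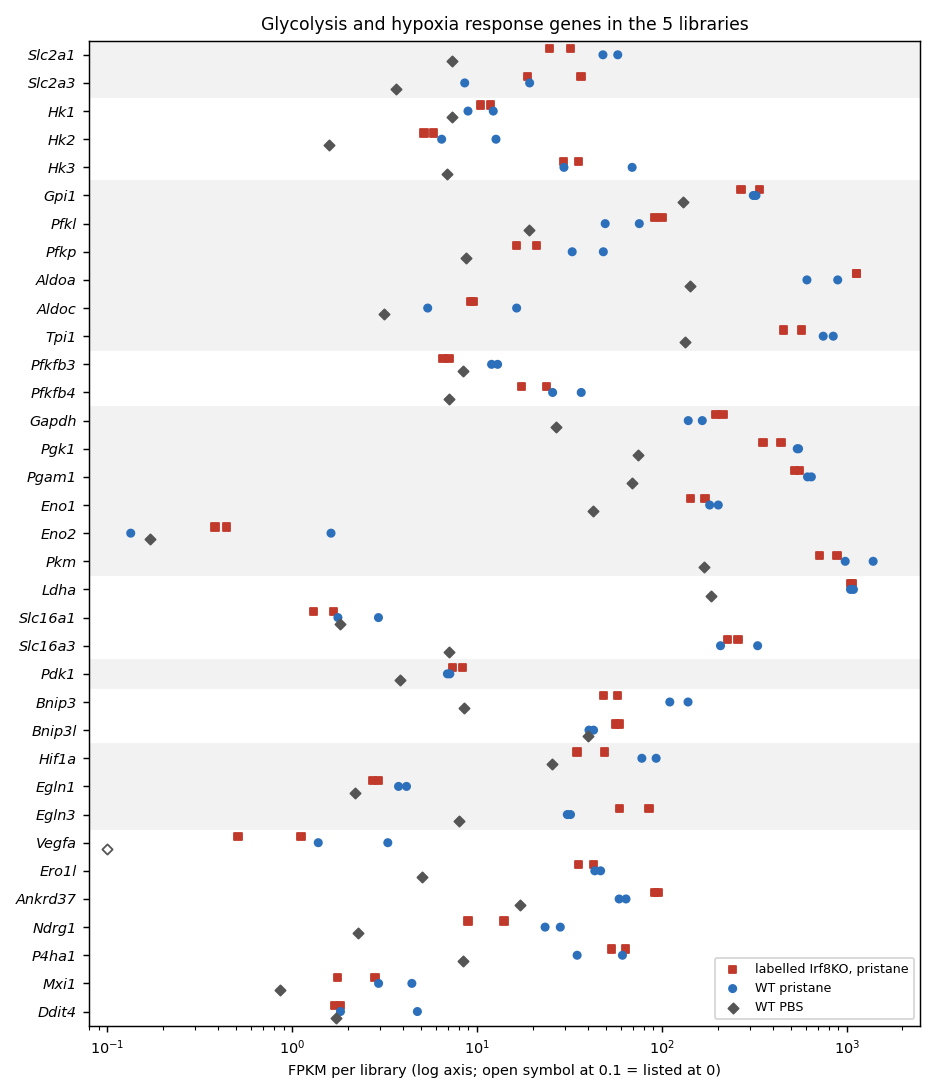
FPKM of the 35 genes in each library on a log axis, with squares for the Irf8KO-labelled libraries, circles for WT pristane and diamonds for WT PBS; shaded bands separate the roles. The PBS diamond lies left of all 4 pristane symbols in 31 rows, and Vegfa is drawn as an open symbol where it was listed at 0.

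Markers of cell types differed in the same comparisons. The 12 mature neutrophil markers summed to 49244 and 25376 FPKM in the Irf8KO-labelled libraries, 17631 and 16074 FPKM in WT pristane and 173 FPKM in WT PBS, where Il1r2 and Stfa2l1 were listed at 0. The 11 inflammatory monocyte markers summed to 2787 and 3109 FPKM in the Irf8KO-labelled libraries, 2856 and 7263 FPKM in WT pristane and 1742 FPKM in WT PBS. Fn1 alone held 2335 and 2859 FPKM of that sum in the Irf8KO-labelled libraries, 1562 and 926 FPKM in WT pristane and 868 FPKM in WT PBS. Chil3 held 120.0 and 69.6 FPKM in the Irf8KO-labelled libraries, 88.9 and 3999.8 FPKM in WT pristane and 4.85 FPKM in WT PBS. The sum therefore says little of the other markers. Fcgr1, the high-affinity IgG receptor, stood at 2.97 and 3.72 FPKM in the Irf8KO-labelled libraries, 73.1 and 271 FPKM in WT pristane and 2.59 FPKM in WT PBS. Ly6c2 stood at 42.9 and 19.8 FPKM, 145 and 296 FPKM, and 2.51 FPKM in the same order. Against PBS 2 of the 11 rose in WT pristane and none fell (median log2 change 3.06). In the Irf8KO-labelled libraries none rose and 1 fell (median 0.27), with 6 changes above 0 and 5 below. Markers of large peritoneal macrophages (15 genes) came to 3149 and 4187 FPKM in the Irf8KO-labelled libraries, 1782 and 1069.9 FPKM in WT pristane and 2756 FPKM in WT PBS. Cd9 alone held 1365 and 524 FPKM of the sum in WT pristane, while 8 of the 15 genes fell there against PBS and 1 rose (median log2 change -3.28). In the Irf8KO-labelled libraries 1 fell and 1 rose (median 0.76). The gene that fell there, Timd4, is also among the 8 and reached 1 FPKM in the PBS library alone. The filter itself therefore placed it below PBS. Timd4 stood at 0.0957 and 0.552 FPKM in the Irf8KO-labelled libraries, 0.676 and 0.838 FPKM in WT pristane and 26.9 FPKM in WT PBS. Of all tested genes, 5.18% rose and 5.46% fell in WT pristane, and 3.81% rose and 4.72% fell in the Irf8KO-labelled libraries. B cell markers (11 genes) came to 241 and 123 FPKM in the Irf8KO-labelled libraries, 57.3 and 17.2 FPKM in WT pristane and 3304 FPKM in WT PBS. Neutrophil markers were thus high and B cell markers low in every pristane library. The part of cell composition in the changes below was not tested, and in bulk RNA more cells of a type and more RNA per cell cannot be told apart.

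Promoter sequences are shown for the members that rose most in WT pristane and had an entry in the promoter table, because the factor Hif1a is known to bind a core of A or G followed by CGTG. RefSeq promoter windows (GRCm38.p6, 250 bases before to 50 after the annotated start) were found for 32 of the 35 members, Ero1l under its current symbol Ero1a. The windows below are given 5′ to 3′ on the strand the table names, which was checked against GENCODE M21 transcripts for all but Pgam1, whose window matched none, with matches to ACGTG or GCGTG on either strand in capitals. Those of Slc16a3 (chr11:120948817-120949116, plus strand), Bnip3 (chr7:138909457-138909756, minus strand), Pgam1 (chr19:41911621-41911920, plus strand) and Ero1l (chr14:45318523-45318822, minus strand) follow.
Slc16a3: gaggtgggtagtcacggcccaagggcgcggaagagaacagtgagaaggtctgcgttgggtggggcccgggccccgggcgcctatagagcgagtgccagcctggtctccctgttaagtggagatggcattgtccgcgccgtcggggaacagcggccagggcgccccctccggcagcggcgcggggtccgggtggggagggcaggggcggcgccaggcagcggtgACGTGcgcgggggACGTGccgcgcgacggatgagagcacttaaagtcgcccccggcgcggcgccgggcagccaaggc
Bnip3: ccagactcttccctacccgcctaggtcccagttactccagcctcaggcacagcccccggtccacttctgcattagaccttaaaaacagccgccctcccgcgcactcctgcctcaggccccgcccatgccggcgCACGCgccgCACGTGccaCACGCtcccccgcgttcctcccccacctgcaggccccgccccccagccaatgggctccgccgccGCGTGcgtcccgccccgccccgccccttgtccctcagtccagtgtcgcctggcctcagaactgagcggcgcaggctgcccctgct
Pgam1: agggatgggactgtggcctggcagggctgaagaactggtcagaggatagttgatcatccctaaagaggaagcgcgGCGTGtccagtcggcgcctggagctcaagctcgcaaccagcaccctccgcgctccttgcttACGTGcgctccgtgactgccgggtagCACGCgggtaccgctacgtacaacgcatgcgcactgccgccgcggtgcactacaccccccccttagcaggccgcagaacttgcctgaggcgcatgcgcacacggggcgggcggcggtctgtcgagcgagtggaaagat
Ero1l: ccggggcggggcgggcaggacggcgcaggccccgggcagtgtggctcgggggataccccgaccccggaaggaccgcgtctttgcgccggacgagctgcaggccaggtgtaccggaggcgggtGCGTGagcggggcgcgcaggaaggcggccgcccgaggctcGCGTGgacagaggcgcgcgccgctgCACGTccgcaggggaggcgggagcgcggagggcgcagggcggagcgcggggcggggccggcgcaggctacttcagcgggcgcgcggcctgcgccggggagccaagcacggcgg
Slc16a3 holds matches that begin at -27 and -14 from its annotated start. In Bnip3 the match at -108 and that at -107 are the overlapping strands of a palindrome, CACGTG. Over all members, ACGTG was found in at least 1 window of 24 of 32 genes, beside 21.8% of the 27025 genes with a window, and GCGTG in 20 of 32 (62.5%), beside 35.2%. The members' windows hold more CpG pairs than most (median 21.0, beside 7 over all windows). Among windows with at least 20 CpG, 78.3% of 23 member genes held ACGTG, beside 30.1% of 7772 genes, while GCGTG was found in 65.2% of member genes, beside 64.9%. Many of these genes are on the list because they are known hypoxia targets, so the letters are a description and not a sign of binding in these cells.

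Glucose enters myeloid cells through facilitative transporters. Slc2a1, the widely expressed transporter GLUT1, stood at 32.0 and 24.8 FPKM in the Irf8KO-labelled libraries, 48.0 and 57.7 FPKM in WT pristane and 7.31 FPKM in WT PBS. The 3 groups did not overlap, and Slc2a1 rose against PBS in WT pristane (log2 change 2.69 ± 0.26 SE, adjusted p = 0.0267, limma on log2(FPKM + 1), as in all that follows) and in the Irf8KO-labelled libraries (1.81 ± 0.26, adjusted p = 0.042, lost without a filter at 0.0528 and without a trend at 0.0505). Slc2a3, the high-affinity transporter GLUT3, stood at 36.5 and 18.7 FPKM in the Irf8KO-labelled libraries, 19.3 and 8.58 FPKM in WT pristane and 3.65 FPKM in WT PBS. Its pristane groups overlapped, and neither comparison with PBS passed (adjusted p = 0.182 in WT pristane and 0.0862 in the Irf8KO-labelled libraries, the second passing at 0.0487 when only genes of a mean of at least 5 FPKM were fitted).

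Hexokinases trap glucose in the cell as glucose-6-phosphate, and none of the 3 passed the threshold. Hk3, the isoenzyme of granulocytes and other myeloid cells, stood at 35.3 and 29.4 FPKM in the Irf8KO-labelled libraries, 29.5 and 69.05 FPKM in WT pristane and 6.90 FPKM in WT PBS. Hk2, the inducible isoenzyme, ranged from 5.17 to 12.7 FPKM after pristane and stood at 1.58 FPKM with PBS. Hk1, the housekeeping isoenzyme, ranged from 8.94 to 12.3 FPKM after pristane and stood at 7.29 FPKM with PBS. All pristane values lay above the PBS value, but the WT pristane replicates of Hk2 and Hk3 lay farther apart than the Irf8KO-labelled libraries did. In WT pristane the log2 changes against PBS were 2.55 ± 0.56 SE for Hk3 (adjusted p = 0.0658), 1.97 ± 0.45 for Hk2 (adjusted p = 0.0699) and 0.47 ± 0.28 for Hk1 (adjusted p = 0.31). With only genes of a mean of at least 5 FPKM in the fit, Hk2 (adjusted p = 0.0378) and Hk3 (adjusted p = 0.0306) passed in WT pristane.

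In upper glycolysis, which carries glucose-6-phosphate to triose phosphates, Aldoa and Tpi1 rose in both comparisons with PBS. Aldoa, the aldolase that cleaves fructose-1,6-bisphosphate, stood at 1126.5 and 1128.5 FPKM in the Irf8KO-labelled libraries, 893 and 609 FPKM in WT pristane and 142 FPKM in WT PBS. Its level was highest in the Irf8KO-labelled libraries, and the log2 change against PBS was 2.98 ± 0.31 SE there (adjusted p = 0.0318) and 2.37 ± 0.31 in WT pristane (adjusted p = 0.0338). Tpi1, triosephosphate isomerase, had the reverse order, with 569 and 453 FPKM in the Irf8KO-labelled libraries, 844 and 745 FPKM in WT pristane and 133 FPKM in WT PBS. It rose by 1.92 ± 0.25 SE on the log2 scale in the Irf8KO-labelled libraries (adjusted p = 0.0378) and by 2.56 ± 0.25 in WT pristane (adjusted p = 0.0267). Gpi1, the isomerase after hexokinase, stood at 337 and 268 FPKM in the Irf8KO-labelled libraries, 312 and 323 FPKM in WT pristane and 130.2 FPKM in WT PBS. It just missed the threshold in WT pristane (log2 change 1.28 ± 0.23 SE, adjusted p = 0.0501) and missed it in the Irf8KO-labelled libraries (1.20 ± 0.23, adjusted p = 0.0576), and passed in both when only genes of a mean of at least 5 FPKM were fitted (adjusted p = 0.0302 and 0.0413). Aldoc, the aldolase best known from brain, stayed between 5.42 and 16.4 FPKM after pristane, beside 3.13 FPKM with PBS, and passed in neither comparison.

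Phosphofructokinase commits sugar to glycolysis, and its 2 isoforms listed here had opposite orders in the pristane groups. Pfkl, the liver-type isoform, stood at 91.2 and 100.02 FPKM in the Irf8KO-labelled libraries, 75.5 and 49.4 FPKM in WT pristane and 19.2 FPKM in WT PBS. It passed against PBS in the Irf8KO-labelled libraries (log2 change 2.25 ± 0.32 SE, adjusted p = 0.0403) and missed in WT pristane (1.62 ± 0.32, adjusted p = 0.0553), where it passed when only genes of a mean of at least 5 FPKM were fitted (adjusted p = 0.0291). Pfkp, the platelet-type isoform, stood at 20.9 and 16.4 FPKM in the Irf8KO-labelled libraries, 48.2 and 32.7 FPKM in WT pristane and 8.74 FPKM in WT PBS. It passed in WT pristane (2.06 ± 0.33, adjusted p = 0.0424) and missed in the Irf8KO-labelled libraries (1.00 ± 0.33, adjusted p = 0.13). Pfkp had its highest levels in WT pristane and Pfkl in the Irf8KO-labelled libraries, with no overlap between the pristane groups for either gene. Of all tested genes, 26.1% lay higher and 27.1% lower without overlap in the Irf8KO-labelled libraries. The direct differences between the pristane groups did not pass (adjusted p = 0.277 for Pfkl and 0.166 for Pfkp). Without a filter both calls against PBS were lost (adjusted p = 0.0567 for Pfkl and 0.0634 for Pfkp).

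The bifunctional enzymes that make and remove fructose-2,6-bisphosphate, the strongest activator of phosphofructokinase, differed from each other. Pfkfb4 stood at 23.8 and 17.5 FPKM in the Irf8KO-labelled libraries, 36.6 and 25.7 FPKM in WT pristane and 7.08 FPKM in WT PBS, and rose in WT pristane (log2 change 1.97 ± 0.34 SE, adjusted p = 0.0462). That call was lost with 4 of the other settings, a pseudocount of 0.1, no filter, upper-quartile scaling and limma without a trend, where adjusted p ran from 0.0512 to 0.0695. Pfkfb3, the form with the greater kinase activity, stood at 7.06 and 6.55 FPKM in the Irf8KO-labelled libraries, 12.9 and 12.0 FPKM in WT pristane and 8.42 FPKM in WT PBS. The PBS library lay between the pristane groups, and Pfkfb3 passed in neither comparison with PBS (adjusted p = 0.191 in WT pristane and 0.429 in the Irf8KO-labelled libraries).

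Lower glycolysis, from glyceraldehyde-3-phosphate to pyruvate, rose in 5 of its 6 members in both comparisons with PBS, the exception being Eno2. Of all tested genes, 3.81% rose in the Irf8KO-labelled libraries and 5.18% in WT pristane. Gapdh, which oxidises glyceraldehyde-3-phosphate, stood at 214 and 196 FPKM in the Irf8KO-labelled libraries, 165 and 139 FPKM in WT pristane and 26.9 FPKM in WT PBS. This common reference gene rose by 2.89 ± 0.21 SE on the log2 scale in the Irf8KO-labelled libraries (adjusted p = 0.0274) and by 2.45 ± 0.21 in WT pristane (adjusted p = 0.0257). Pgk1, the first ATP-yielding kinase of the pathway, stood at 441 and 352 FPKM in the Irf8KO-labelled libraries, 548 and 539 FPKM in WT pristane and 74.3 FPKM in WT PBS. Pgam1, the phosphoglycerate mutase, stood at 555 and 519.9 FPKM in the Irf8KO-labelled libraries, 613 and 643 FPKM in WT pristane and 69.2 FPKM in WT PBS. Pgam1 had the largest rise among the enzymes of lower glycolysis in either comparison, by 2.94 ± 0.19 SE in the Irf8KO-labelled libraries (adjusted p = 0.0274) and by 3.16 ± 0.19 in WT pristane (adjusted p = 0.0236). Eno1, the widely expressed enolase, stood at 171 and 142 FPKM in the Irf8KO-labelled libraries, 202 and 181 FPKM in WT pristane and 42.2 FPKM in WT PBS. Pkm, the pyruvate kinase of most tissues outside liver and red cells, stood at 886 and 715 FPKM in the Irf8KO-labelled libraries, 980.4 and 1388 FPKM in WT pristane and 169.6 FPKM in WT PBS. The rises in the Irf8KO-labelled libraries and in WT pristane were 2.39 ± 0.23 SE and 2.86 ± 0.23 for Pgk1, 1.86 ± 0.22 and 2.15 ± 0.22 for Eno1, and 2.22 ± 0.33 and 2.77 ± 0.33 for Pkm. The call of Pkm in the Irf8KO-labelled libraries (adjusted p = 0.0423) was lost with a pseudocount of 0.1 (0.0521) and without a filter (0.0593). For each of these 5 genes the PBS library lay far below all pristane libraries. Eno2, the neuronal enolase, was between 0.134 and 1.63 FPKM in all 5 libraries and showed no order. Mouse Gapdh, Eno1, Ldha and other glycolytic genes have near-identical processed copies in the genome, so their level is uncertain where fragments were shared. Eno1b, a copy of Eno1 with its own row, stayed at 5.23 FPKM or less. A gene model on the same strand as Pkm, Gm49759, overlaps 15.3% of the exon bases of Pkm in GENCODE M21 and has no row of its own.

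**Figure D2:**
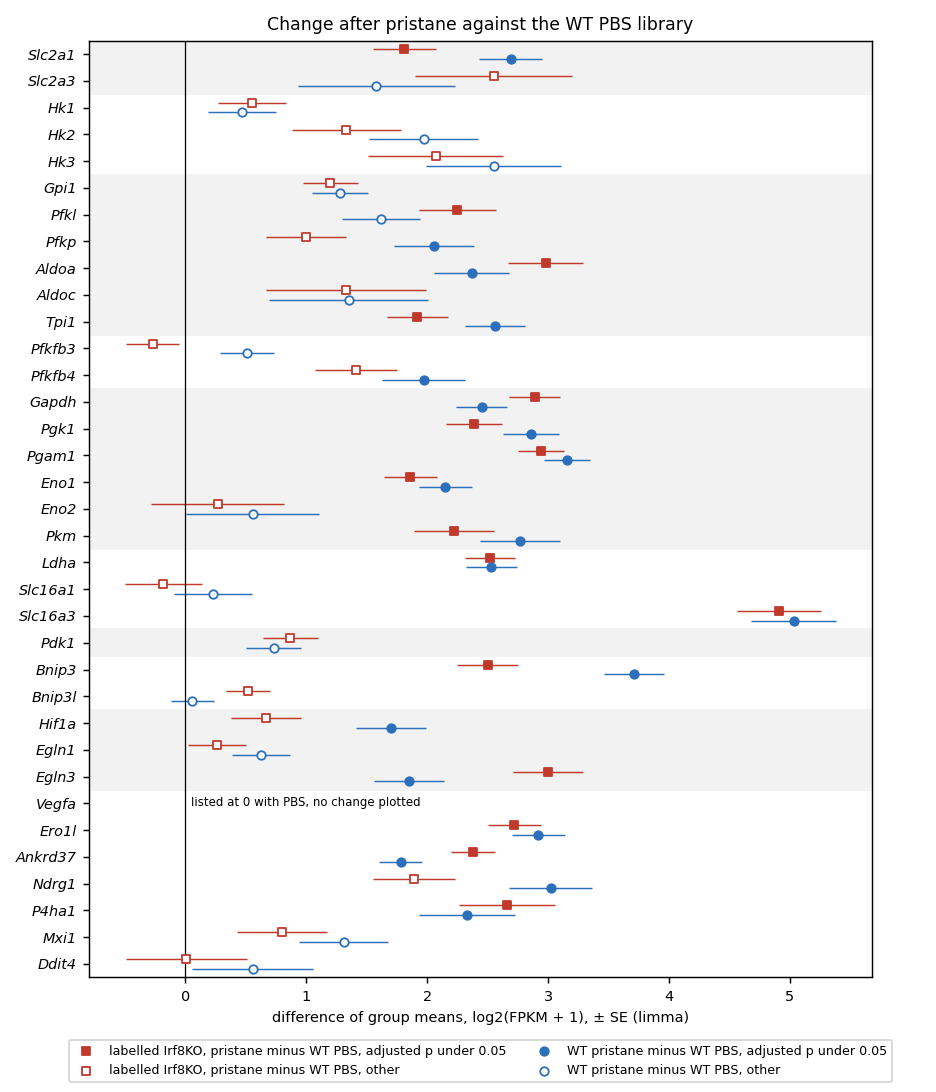
Differences of group means from the WT PBS library on the log2(FPKM + 1) scale with SE, squares for the Irf8KO-labelled libraries and circles for WT pristane, filled where the adjusted p was under 0.05. Slc16a3 lies farthest right in both comparisons, Bnip3 next in WT pristane, and Pfkfb3 and Slc16a1 lie right of 0 in WT pristane and left of it in the Irf8KO-labelled libraries.

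Lactate formation and export held the largest rise of all 35 genes. Ldha, the lactate dehydrogenase subunit that favours lactate, stood at 1069.7 and 1049 FPKM in the Irf8KO-labelled libraries, 1086 and 1047 FPKM in WT pristane and 184 FPKM in WT PBS. The 4 pristane values were nearly alike, and Ldha rose by 2.52 ± 0.21 SE in the Irf8KO-labelled libraries (adjusted p = 0.0274) and by 2.53 ± 0.21 in WT pristane (adjusted p = 0.0247). Slc16a3, the lactate exporter MCT4 of glycolytic cells, stood at 258 and 226 FPKM in the Irf8KO-labelled libraries, 329 and 208 FPKM in WT pristane and 7.04 FPKM in WT PBS. It rose by 4.91 ± 0.35 SE in the Irf8KO-labelled libraries (adjusted p = 0.0274) and by 5.03 ± 0.35 in WT pristane (adjusted p = 0.0247), with the pristane groups overlapping. Slc16a1, the transporter MCT1 that carries lactate both ways, stayed between 1.31 and 2.93 FPKM in all 5 libraries, and its PBS value of 1.81 FPKM lay among them. Pdk1, the kinase that shuts off pyruvate dehydrogenase, stood at 8.38 and 7.41 FPKM in the Irf8KO-labelled libraries, 7.13 and 6.92 FPKM in WT pristane and 3.85 FPKM in WT PBS. Every pristane value of Pdk1 exceeded the PBS value, but it did not pass (log2 change 0.87 ± 0.23 SE, adjusted p = 0.0925, in the Irf8KO-labelled libraries and 0.73 ± 0.23, adjusted p = 0.122, in WT pristane).

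Bnip3 and Bnip3l encode related receptors on the outer mitochondrial membrane that mark mitochondria for removal, and only Bnip3 passed. Bnip3 stood at 57.4 and 48.3 FPKM in the Irf8KO-labelled libraries, 110.4 and 138 FPKM in WT pristane and 8.50 FPKM in WT PBS. The 3 groups were well separated, with rises against PBS of 2.5 ± 0.25 SE in the Irf8KO-labelled libraries (adjusted p = 0.0318) and 3.71 ± 0.25 in WT pristane (adjusted p = 0.0247). Bnip3l stood at 59.1 and 55.9 FPKM in the Irf8KO-labelled libraries, 42.7 and 40.3 FPKM in WT pristane and 39.9 FPKM in WT PBS, and the difference of WT pristane from PBS was small (log2 change 0.06, 95% interval -0.44 to 0.55) and the sign of that difference turned with upper-quartile scaling (-0.26). An unnamed gene model on the opposite strand overlaps 22.3% of the exon bases of Bnip3 in GENCODE M21, and the sources used here do not say whether strand was used.

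The oxygen-sensing genes included a rise of Hif1a itself in WT pristane. Hif1a, the oxygen-regulated subunit of the factor, stood at 48.9 and 34.8 FPKM in the Irf8KO-labelled libraries, 93.1 and 77.9 FPKM in WT pristane and 25.6 FPKM in WT PBS. It passed in WT pristane (log2 change 1.70 ± 0.29 SE, adjusted p = 0.0462) and not in the Irf8KO-labelled libraries (0.67 ± 0.29, adjusted p = 0.201), and the WT call was lost with a pseudocount of 0.1, no filter, upper-quartile scaling or no trend (adjusted p 0.0534 to 0.0673). Egln3, a prolyl hydroxylase that is itself a hypoxia target, stood at 58.8 and 85.1 FPKM in the Irf8KO-labelled libraries, 32.1 and 30.8 FPKM in WT pristane and 7.99 FPKM in WT PBS. It rose in both comparisons, by 3.00 ± 0.29 SE in the Irf8KO-labelled libraries (adjusted p = 0.0318) and by 1.85 ± 0.29 in WT pristane (adjusted p = 0.0412, lost without a filter at 0.0584 and with upper-quartile scaling at 0.0509). Egln1, the main prolyl hydroxylase at normal oxygen, stayed between 2.71 and 4.16 FPKM after pristane, beside 2.2 FPKM with PBS, and did not pass.

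Among the other hypoxia targets Ero1l, Ankrd37 and P4ha1 rose in both comparisons and Ndrg1 in WT pristane. Ero1l, the oxidase that drives disulphide bond formation in the endoplasmic reticulum, stood at 35.5 and 42.8 FPKM in the Irf8KO-labelled libraries, 46.6 and 43.4 FPKM in WT pristane and 5.06 FPKM in WT PBS. It rose by 2.72 ± 0.22 SE in the Irf8KO-labelled libraries (adjusted p = 0.0274) and by 2.92 ± 0.22 in WT pristane (adjusted p = 0.0247). Ankrd37, an ankyrin repeat gene, stood at 90.9 and 95.2 FPKM in the Irf8KO-labelled libraries, 64.0 and 58.7 FPKM in WT pristane and 17.1 FPKM in WT PBS. Its groups did not overlap, and the rises were 2.38 ± 0.18 SE in the Irf8KO-labelled libraries (adjusted p = 0.0274) and 1.78 ± 0.18 in WT pristane (adjusted p = 0.0277). Lrp2bp, which shares 22.7% of the exon bases of Ankrd37 on the opposite strand, stood at 0.126 FPKM or less. Ufsp2, which shares 3.7% of them on the opposite strand, had the same group order as Ankrd37. It stood at 27.9 and 25.7 FPKM in the Irf8KO-labelled libraries, 17.0 and 22.7 FPKM in WT pristane and 10.8 FPKM in WT PBS. Its part in the Ankrd37 values was not tested. P4ha1, a subunit of the hydroxylase that modifies collagen prolines, stood at 53.3 and 63.8 FPKM in the Irf8KO-labelled libraries, 61.2 and 34.8 FPKM in WT pristane and 8.4 FPKM in WT PBS. It rose by 2.66 ± 0.40 SE in the Irf8KO-labelled libraries (adjusted p = 0.0432) and by 2.33 ± 0.40 in WT pristane (adjusted p = 0.0466). Those calls were lost with a pseudocount of 0.1, no filter or no trend in both comparisons and with upper-quartile scaling in WT pristane (adjusted p 0.0505 to 0.075). Ndrg1, a stress-inducible gene, stood at 14.0 and 8.96 FPKM in the Irf8KO-labelled libraries, 23.4 and 28.2 FPKM in WT pristane and 2.29 FPKM in WT PBS. It rose by 3.02 ± 0.34 SE in WT pristane (adjusted p = 0.0296) and missed in the Irf8KO-labelled libraries (1.89 ± 0.34, adjusted p = 0.0544), passing there when only genes of a mean of at least 5 FPKM were fitted (adjusted p = 0.0301).

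The remaining 3 targets were low. Vegfa, the growth factor of blood vessels, stood at 1.12 and 0.510 FPKM in the Irf8KO-labelled libraries and 3.30 and 1.39 FPKM in WT pristane, and was listed at 0 in WT PBS, which gives no base for a fold change. Mxi1, an antagonist of the Myc network, stood at 2.81 and 1.75 FPKM in the Irf8KO-labelled libraries, 4.45 and 2.94 FPKM in WT pristane and 0.864 FPKM in WT PBS. Ddit4, the inhibitor of mTOR signalling also called REDD1, stood at 1.83 and 1.69 FPKM in the Irf8KO-labelled libraries, 4.76 and 1.83 FPKM in WT pristane and 1.73 FPKM in WT PBS, so that WT pristane replicate 1 alone stood out. Neither Mxi1 (adjusted p = 0.216 and 0.0965) nor Ddit4 (adjusted p = 0.992 and 0.471) passed in the Irf8KO-labelled libraries or in WT pristane.

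The direct comparison of the pristane groups asked whether the programme differed with the Irf8KO label. None of the 35 genes passed the threshold (limma), where 0.027% of all tested genes did, and 10 members had an unadjusted p under 0.05. Those 10 were 3 with higher values in the Irf8KO-labelled libraries, Egln3, Ankrd37 and Bnip3l, and 7 with lower values, Bnip3, Ndrg1, Pfkp, Hif1a, Slc2a1, Pfkfb3 and Tpi1. At that p, 10.5% of all tested genes were higher and 10.1% lower (20.6% together). The WT pristane libraries also serve the comparison with PBS, so these results are not independent of those above. The 2 Irf8KO-labelled libraries lay above both WT pristane libraries for 7 members and below both for 19, where 26.1% and 27.1% of all tested genes did so. The median difference was -0.29 over the members, beside 0.00 over all tested genes.

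Bnip3 had the largest difference of the 35, with -1.22 ± 0.20 SE on the log2 scale (95% interval -1.77 to -0.66, adjusted p = 0.108), and passed when the 4 pristane libraries were fitted alone (adjusted p = 0.0495). Egln3 lay at the other end with 1.15 ± 0.24 SE (95% interval 0.49 to 1.80, adjusted p = 0.137). Both are known hypoxia targets, and their values in the Irf8KO-labelled libraries lay on opposite sides of those in WT pristane. Bnip3l differed by 0.46 ± 0.15 SE (95% interval 0.06 to 0.86, adjusted p = 0.208), the opposite sign to Bnip3. Ndrg1 (-1.13, 95% interval -1.91 to -0.35), Pfkp (-1.06, -1.82 to -0.31), Hif1a (-1.03, -1.69 to -0.37) and Slc2a1 (-0.88, -1.47 to -0.29) had lower values in both Irf8KO-labelled libraries, with adjusted p between 0.152 and 0.166. Ankrd37 had higher values in both (0.59, 95% interval 0.18 to 1.00, adjusted p = 0.164).

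Some differences were small. Ldha differed by -0.01 (95% interval -0.48 to 0.46), Slc16a3 by -0.11 (-0.90 to 0.67), Pgam1 by -0.23 (-0.67 to 0.22) and Gpi1 by -0.08 (-0.61 to 0.45), so a change of more than 1 on the log2 scale in either direction lay outside the interval of each. For Slc2a3 (0.96, 95% interval -0.51 to 2.43), Hk3 (-0.48, -1.75 to 0.79) and Aldoc (-0.02, -1.52 to 1.48) the intervals were wide and allowed large differences both ways. Aldoa (0.61, -0.10 to 1.32), Pfkl (0.64, -0.08 to 1.36) and Gapdh (0.43, -0.04 to 0.91) had higher values in both Irf8KO-labelled libraries, while Tpi1 (-0.64, -1.21 to -0.07), Pgk1 (-0.46, -0.99 to 0.06) and Pkm (-0.55, -1.29 to 0.19) had lower values in both. Neighbouring steps of the pathway thus stood on opposite sides without any of them passing the threshold.

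**Figure D3:**
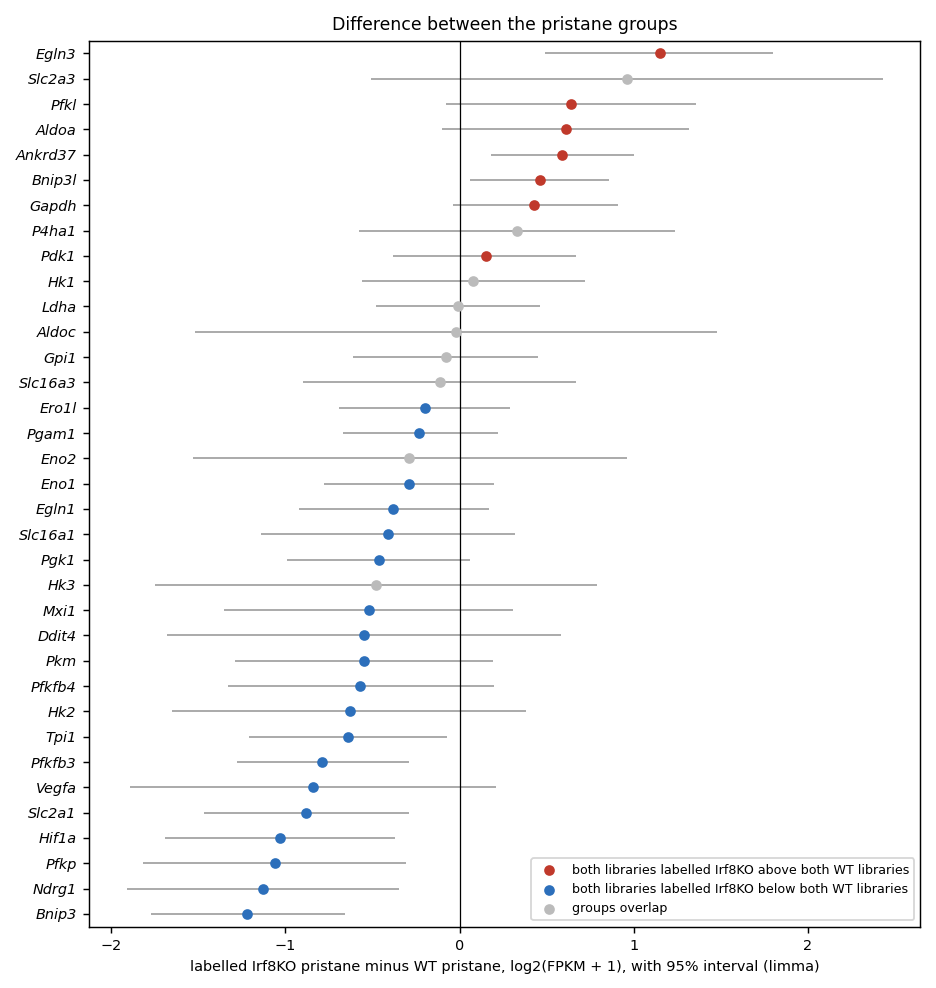
Differences between the Irf8KO-labelled libraries and WT pristane on the log2(FPKM + 1) scale with 95% intervals, sorted by size; colour shows whether both libraries of a group lay above or below both of the other. Egln3 is at the top with 1.15 and Bnip3 at the bottom with -1.22, and 10 intervals leave out 0.

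Markers of other cells also differed between the pristane groups. Natural killer cell markers (8 genes) summed to 83.2 and 36.9 FPKM in the Irf8KO-labelled libraries and 202 and 161 FPKM in WT pristane. Markers of dividing cells (10 genes) summed to 93.7 and 80.2 FPKM in the Irf8KO-labelled libraries and 11.1 and 12.6 FPKM in WT pristane. None of the markers of any list passed the threshold here. Of the 11 monocyte markers, 10 had lower values in the Irf8KO-labelled libraries (median difference -2.84), 7 of them at an unadjusted p under 0.05, and Fn1 had higher ones. Of the 15 large peritoneal macrophage markers, 14 had higher values there (median 2.25), 10 of them at an unadjusted p under 0.05. The 12 neutrophil markers had a median difference of 0.92, with 4 of them higher at that p. All 9 tested markers of dividing cells were higher at that p, while all 8 T cell markers and 4 of 7 tested natural killer cell markers were lower. Of all tested genes, 10.5% were higher and 10.1% lower at that p. T cell markers (8 genes) summed to 36.8 and 29.8 FPKM in the Irf8KO-labelled libraries, 106 and 79.5 FPKM in WT pristane and 116 FPKM in WT PBS. The sums of mast cell (9 genes), erythroid (7 genes) and fibroblast or mesothelial markers (8 genes) were 114, 28.3 and 78.4 FPKM at most in the Irf8KO-labelled libraries, 190.3, 3.75 and 55.5 FPKM at most in WT pristane, and 330.3, 56.3 and 0 FPKM in WT PBS, where every fibroblast and mesothelial marker was listed at 0. The mast cell sum after pristane was mostly Hdc, which stood at 108 and 109.8 FPKM in the Irf8KO-labelled libraries, 186 and 50.2 FPKM in WT pristane and 10.9 FPKM in WT PBS, while the mast cell protease Mcpt4 was listed at 0 in all pristane libraries and at 70.2 FPKM in WT PBS. Their part in the differences between the pristane groups was not tested.

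Isoenzyme shares were computed within each library as the percent of the summed FPKM of the genes named, with other genes of the family left out. They do not depend on how libraries are scaled to each other. They are a description, and no test was run on them. Pfkl made up 81.4% and 85.9% of Pfkl plus Pfkp in the Irf8KO-labelled libraries, 61.0% and 60.1% in WT pristane and 68.8% in WT PBS. The gap between the pristane groups was wider than that between replicates, with means of 83.6% ± 3.2 and 60.6% ± 0.62 (SD, n = 2 each). Slc2a1 made up 46.7% and 57.0% of Slc2a1 plus Slc2a3 in the Irf8KO-labelled libraries, 71.4% and 87.1% in WT pristane and 66.7% in WT PBS, with no overlap between the pristane groups but wide spread. Slc2a6, left out of that sum, ranged from 50.6 to 179 FPKM after pristane and stood at 19.9 FPKM with PBS. Bnip3 made up 49.3% and 46.4% of Bnip3 plus Bnip3l in the Irf8KO-labelled libraries, 72.1% and 77.4% in WT pristane and 17.6% in WT PBS, a family added after its values were seen. Egln3 made up 95.3% and 96.9% of Egln1 plus Egln3 in the Irf8KO-labelled libraries, 88.5% and 89.1% in WT pristane and 78.4% in WT PBS. Egln2, left out of that sum, stood between 19.4 and 23.7 FPKM in all 5 libraries. In WT PBS it lay above Egln3 (20.9 beside 7.99 FPKM). Hexokinase shares separated pristane from PBS more than the pristane groups from each other: Hk3 held 66.6% and 65.3% in the Irf8KO-labelled libraries, 65.8% and 73.5% in WT pristane and 43.8% in WT PBS. Slc16a3 made up at least 98.6% of Slc16a1 plus Slc16a3 in every pristane library and 79.6% in WT PBS. Slc16a7, left out of that sum, stood at 2.80 FPKM with PBS and at 5.97 FPKM or less after pristane. Aldoa held at least 97.8% of Aldoa plus Aldoc and Eno1 at least 99.2% of Eno1 plus Eno2 in all 5 libraries. The enolase genes Eno3 and Eno1b, left out of that sum, reached 9.06 and 5.23 FPKM at most.

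**Figure D4:**
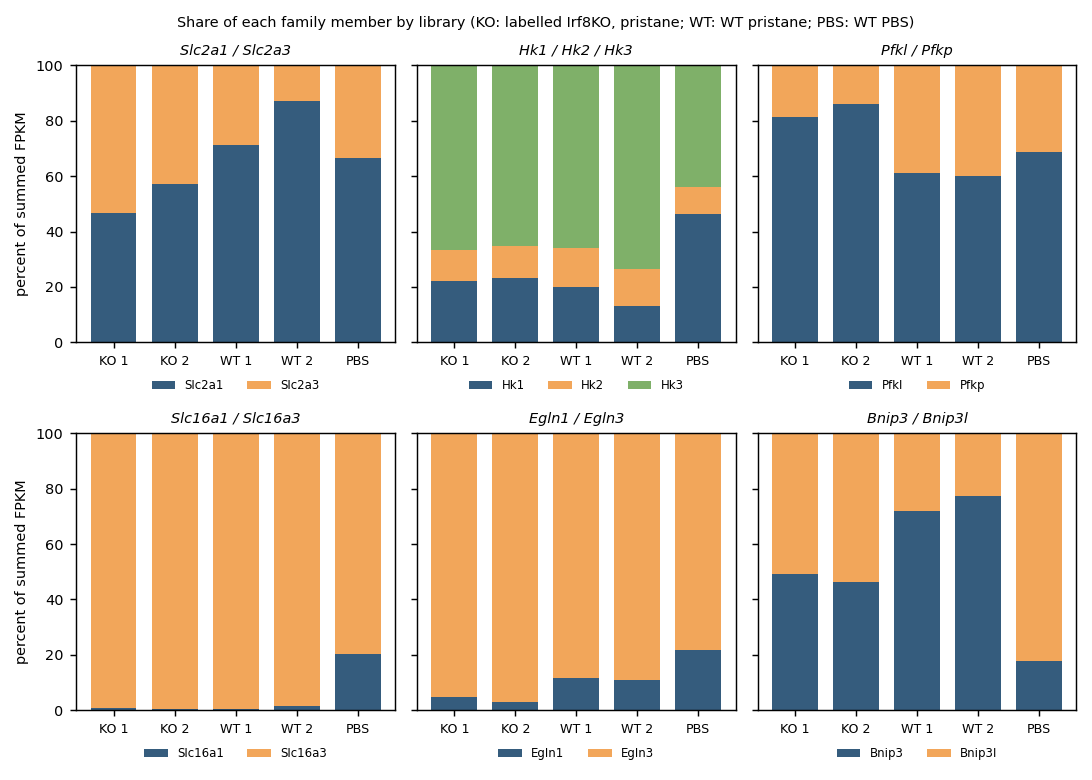
Percent held by each listed gene of 6 families, out of the summed FPKM of those listed genes. Stacked bars stand for the 2 Irf8KO-labelled libraries (KO), the 2 WT pristane libraries (WT) and the WT PBS library. Pfkl runs from 60.1% to 85.9% and Bnip3 from 17.6% to 77.4% across libraries, while Slc16a3 fills nearly the whole bar after pristane.

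The composition of the core pathway also differed between libraries. Aldoa held 20.3% and 22.6% of the summed FPKM of the 16 enzyme genes in the Irf8KO-labelled libraries, 15.3% and 10.5% in WT pristane and 14.0% in WT PBS. Tpi1, its neighbour in the pathway, held 10.3% and 9.07% in the Irf8KO-labelled libraries, 14.5% and 12.9% in WT pristane and 13.1% in WT PBS. Gpi1 held 6.09% and 5.36% in the Irf8KO-labelled libraries, 5.35% and 5.57% in WT pristane and 12.8% in WT PBS. Ldha kept a nearly constant share, from 18.1% to 21.0% in all 5 libraries.

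Other genes of glucose metabolism were counted by list. Of 23 further glycolysis isoenzymes and transporters, 12 were tested and Eno1b rose in WT pristane (log2 change 1.60, adjusted p = 0.0471), while none passed in the Irf8KO-labelled libraries. Eno1b stood at 4.57 and 4.44 FPKM in the Irf8KO-labelled libraries, 5.23 and 3.89 FPKM in WT pristane and 0.819 FPKM in WT PBS. It reached 1 FPKM in pristane libraries only, so the filter itself placed some pristane value above PBS. The part of fragments shared with Eno1 was not tested. The highest of the 12 was Bsg, the partner protein of lactate transporters, with 351 and 489 FPKM in the Irf8KO-labelled libraries, 212 and 167 FPKM in WT pristane and 124 FPKM in WT PBS. Its pristane groups did not overlap, and it missed in the Irf8KO-labelled libraries (log2 change 1.74, adjusted p = 0.0535). Slc2a6, a hexose transporter, had replicates far apart and did not pass, with 149 and 92.8 FPKM in the Irf8KO-labelled libraries, 179 and 50.6 FPKM in WT pristane and 19.9 FPKM in WT PBS.

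Among 24 tested further hypoxia targets, 4 rose and none fell in the Irf8KO-labelled libraries (median 0.74), and 5 rose and 2 fell in WT pristane (median 1.05). Over all tested genes 3.81% rose and 4.72% fell in the Irf8KO-labelled libraries, and 5.18% rose and 5.46% fell in WT pristane. Plod1, a collagen lysyl hydroxylase, rose by 2.13 on the log2 scale in the Irf8KO-labelled libraries (adjusted p = 0.0339) and Hilpda, a lipid droplet protein, by 2.64 (adjusted p = 0.043). Pgm2, a sugar phosphate mutase, rose by 1.35 in WT pristane (adjusted p = 0.0342). Ak4, a mitochondrial adenylate kinase, is among the 5 but passed the filter on low values through WT pristane alone, with 0.805 and 0.726 FPKM in the Irf8KO-labelled libraries, 1.41 and 1.69 FPKM in WT pristane and 0.0853 FPKM in WT PBS. Adm, which encodes the peptide hormone adrenomedullin, fell by 2.72 in WT pristane (adjusted p = 0.0449). It stood at 1.01 and 0.483 FPKM in the Irf8KO-labelled libraries, 0.794 and 0 FPKM in WT pristane and 7.82 FPKM in WT PBS. Its values after pristane rest on few fragments. The further hypoxia targets that passed in WT pristane thus did not all move one way. None of the 13 tested oxygen sensors and Hif partners passed in any comparison (limma). At an unadjusted p under 0.05 there were 3, 4 and 1 of them in WT pristane against PBS, in the Irf8KO-labelled libraries against PBS and between the pristane groups, where 33.8%, 33.7% and 20.6% of all tested genes were. Tceb2 and Rbx1, which encode elongin B and the RING subunit of the complex that marks Hif1a for breakdown, were the highest of them by mean, at 188 to 339 FPKM and 28.9 to 47.4 FPKM over all 5 libraries. Epas1, which encodes Hif2a, was singled out after its values were seen, with 21.0 and 38.1 FPKM in the Irf8KO-labelled libraries, 1.45 and 3.99 FPKM in WT pristane and 2.33 FPKM in WT PBS. The difference between the pristane groups was 3.07 ± 0.50 SE (95% interval 1.68 to 4.46, adjusted p = 0.108).

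In the pentose phosphate pathway, which branches from glucose-6-phosphate and supplies NADPH, 4 of 8 genes rose in the Irf8KO-labelled libraries and 3 in WT pristane. Pgd, its second dehydrogenase, rose by 2.93 in the Irf8KO-labelled libraries (adjusted p = 0.0318) and by 2.53 in WT pristane (adjusted p = 0.0292). G6pdx, its first dehydrogenase, rose by 1.71 in the Irf8KO-labelled libraries (adjusted p = 0.0336) and by 1.16 in WT pristane (adjusted p = 0.0441). Taldo1, transaldolase, rose in the Irf8KO-labelled libraries (1.88, adjusted p = 0.046) and Tkt, transketolase, in both (1.31, adjusted p = 0.0475, there and 1.34, adjusted p = 0.0424, in WT pristane). In glycogen handling 2 of 10 tested genes rose in the Irf8KO-labelled libraries and 3 in WT pristane, Pgm2 among them. Pgm2 and Gys1 stand in both lists and are also counted among the 5 further hypoxia targets that rose in WT pristane. Over all tested genes 3.81% rose in the Irf8KO-labelled libraries and 5.18% in WT pristane. Pgm1, also a sugar phosphate mutase, rose by 1.57 in the Irf8KO-labelled libraries (adjusted p = 0.0395) and by 1.60 in WT pristane (adjusted p = 0.0346). Gys1, glycogen synthase, rose by 1.77 in WT pristane (adjusted p = 0.0492). Pygl, a glycogen phosphorylase, stood at 290.3 and 306 FPKM in the Irf8KO-labelled libraries, 126 and 99.0 FPKM in WT pristane and 83.8 FPKM in WT PBS, and rose against PBS in the Irf8KO-labelled libraries (1.82, adjusted p = 0.0371).

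Lists of pyruvate oxidation and glucose synthesis were counted in the same way. Of 16 tricarboxylic acid cycle genes, Mdh2, malate dehydrogenase, rose in the Irf8KO-labelled libraries (1.27, adjusted p = 0.0401, median of the list 0.18), where 3.81% of all tested genes rose. None of the 16 passed in WT pristane (median 0.15), where 5.18% of all tested genes rose and 5.46% fell. Of 12 tested genes of pyruvate import and pyruvate dehydrogenase, 11 passed in neither comparison with PBS. The remaining gene, Pdk4, a kinase that blocks the dehydrogenase, passed the filter on low values through the PBS library alone, so its values are given without a call. It was listed at 0 in both Irf8KO-labelled libraries, at 0 and 0.0988 FPKM in WT pristane and at 1.87 FPKM in WT PBS. In gluconeogenesis 2 of 6 genes were tested. Pck2, the mitochondrial carboxykinase, stood at 2.93 and 3.99 FPKM in the Irf8KO-labelled libraries, 2.37 and 2.71 FPKM in WT pristane and 11.4 FPKM in WT PBS, and fell by 1.81 in WT pristane (adjusted p = 0.0412).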

How the data were processed

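The deposited table holds FPKM values made by the authors, although they named it a count table: the values are not whole numbers. Per the submitters' processing notes, BWA, TopHat2 2.0.10, Cufflinks 2.2.1 and Cuffnorm were used, with no step given for each. No genome build or annotation is named in the sources used here. Members and lists were chosen with earlier results of these data known. The 11117 genes that reached 1 FPKM in any library were tested with limma-trend (limma 3.58.1, R 4.3.3) on log2(FPKM + 1), with 3 group means over 5 libraries, 2 residual and 1.99 prior degrees of freedom, and Benjamini-Hochberg adjustment over all tested genes. The pseudocount understates changes of low genes. All 35 members were reported, those past the threshold and the highest of each role in every library. From each other pathway list up to 3 genes past the threshold with the smallest p, or the 2 highest, could be named. A gene of the further hypoxia targets is counted but not reported here. The size of 1 fragment was read from low values of genes with 1 GENCODE M21 transcript of at least 1000 bases. Between 71.2% and 82.6% of products near 1 or 2 fragments lay within 0.15 of them. Alternatives were another pseudocount, no or a stricter filter, 2 rescalings, no trend, each pristane library left out, the 4 pristane libraries alone and a replicate block. The fit was tested on simulated data. Figures were drawn with matplotlib 3.10.9.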

Additional observations from a re-analysis of the deposited data

How the results depend on the processing

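The member counts against PBS stayed within 1.5 times of 19 (WT pristane) and 16 (Irf8KO-labelled libraries) with a pseudocount of 0.1, no filter (genes at 0 throughout dropped), a mean of at least 5 FPKM, both rescalings and limma without a trend, and fell to 0 with any pristane replicate left out, where 1 residual degree of freedom remained and all genes past the threshold also numbered 0 in all 3 comparisons. Between 18 and 29 members then had an unadjusted p under 0.05 against PBS, as did 2242 to 4013 of the 10992 to 11036 genes tested; between the pristane groups these were 2 to 13 members and 1005 to 2529 genes. Between the pristane groups 0 members passed, with 1 (Bnip3) in the fit of the 4 pristane libraries alone and 4 (Bnip3, Pfkp, Hif1a, Egln3) with a replicate block in that fit. Replicate numbers are not known to pair samples (correlation of same-numbered deviations 0.045). Over all genes the count between the pristane groups was 3, and it was 0 with a pseudocount of 0.1 or no filter, 242 with a mean of at least 5 FPKM, 40 without a trend, 431 with the 4 pristane libraries alone and 799 with the replicate block. For the Irf8KO-labelled libraries against PBS it was 623 without a trend, beside 949. No replicate block was possible against the lone PBS library.

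Some signs turned. Bnip3l in WT pristane against PBS turned with upper-quartile scaling (-0.26), and Ddit4 in the Irf8KO-labelled libraries against PBS with median-of-ratios (-0.01) and upper-quartile scaling (-0.19) and without Irf8KO pristane replicate 1 (-0.02). With 1 replicate left out in turn, Slc16a1 in WT pristane against PBS ran from -0.02 to 0.49. Between the pristane groups Hk1 ran from -0.13 to 0.29, Hk3 from -1.08 to 0.12, Gpi1 from -0.25 to 0.09, Aldoc from -0.74 to 0.70, Ldha from -0.04 to 0.02, Slc16a3 from -0.45 to 0.22 and P4ha1 from -0.07 to 0.73. The causes were not tested. Depth limits Eno2, Vegfa, Mxi1, Ddit4 and Slc16a1, listed at few FPKM.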
